A study of Homo sapiens with 11 samples.

Results

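The expression of 50 genes was followed that were at the background level of the arrays after 24 h in solvent and clearly above it after 24 h of vorinostat. The cells were the neuroblastoma line SK-N-BE(2)-C, which has an amplified MYCN gene. They were chosen from the authors' normalized intensities among 30113 probes with 1 gene symbol, which stand for 20046 genes. A probe had to be under 120 on all 3 solvent arrays of 24 h and above 150 on all 3 vorinostat arrays of 24 h. 51 probes met this, 2 of them for KDELR3, and the probe with the higher intensity under vorinostat at 24 h stood for that gene. All 50 genes are protein coding. The 24 h values chose the genes and are therefore a description without a test, whereas the arrays of 6 d were not used to choose them.

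All groups were this cell line in the same medium, given 500 nM vorinostat (SAHA) or its vehicle DMSO, and total RNA was hybridized to Illumina HT-12 v4 BeadChips. There were 3 arrays of vorinostat for 24 h, 3 of DMSO for 24 h, 2 of vorinostat for 6 d and 3 of DMSO for 6 d. A vorinostat array of 6 d with the replicate number 1 was not analysed here. Vorinostat blocks the zinc-dependent histone deacetylases (HDACs), which take acetyl groups off histone tails and other proteins. Acetylated histones are a mark of open chromatin at promoters, and genes with little transcription can be switched on when HDACs are blocked. Many genes also fall under HDAC inhibitors.

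The arrays differed in ways that touch each result below. The groups of 24 h lay on a BeadChip each, so that chip and treatment cannot be told apart at 24 h, while both groups of 6 d shared 1 chip. Before normalization the mean intensity was 401 to 413 on the vorinostat and 272 to 302 on the DMSO arrays of 24 h, and 283 and 338 on the vorinostat and 323 to 383 on the DMSO arrays of 6 d. At 24 h 18299 to 18693 probes were detected on the vorinostat and 15944 to 16875 on the DMSO arrays, and at 6 d 16343 and 16838 on the vorinostat and 17441 to 18156 on the DMSO arrays. Array brightness thus moved with the genes, and its part in the results was not tested. On the first principal component of 13500 tested probes outside the 50 genes (35.3% of the variance), vorinostat at 24 h (20.8 to 26.5) and DMSO at 6 d (7.07 to 24.1) lay on one side, and DMSO at 24 h (-35.1 to -25.9) and vorinostat at 6 d (-21.1 and -13.5) on the other. Across these probes the vorinostat minus DMSO differences of 24 h and of 6 d, which share no array, had a Pearson's r of -0.46, given as a description. Each direction at 6 d rests on the authors' labels, the sample titles and the array names of the non-normalized intensities, which give the same treatments. In addition, the descriptions of DMSO 6 d replicate 3 and vorinostat 6 d replicate 2 begin with replicate 1. The numbers in the titles were used, which the array names also give. All 14 noradrenergic neuroblastoma markers analysed here, such as HAND2 and TH, were detected on every array, and none of the endothelial and glial markers was detected in any group. Of 10 fibroblast and mesenchymal markers 5 were detected on every array (LUM, DCN, VIM, THY1 and PDGFRB), while COL1A1, COL1A2, COL3A1, FN1 and PRRX1 were detected on 2 arrays at most in any group. The summed normalized intensity of the 10 was 7777 to 8541 with vorinostat and 5130 to 5339 with DMSO at 24 h, and 6938 to 7449 with vorinostat and 7208 to 8536 with DMSO at 6 d, where the groups overlapped. LUM, the matrix proteoglycan lumican, averaged 868 with vorinostat and 177 with DMSO at 24 h, and 445 with vorinostat and 712 with DMSO at 6 d. PDGFRB, a receptor of platelet-derived growth factor, averaged 827 with vorinostat and 530 with DMSO at 24 h, and 775 with vorinostat and 1381 with DMSO at 6 d. VIM, the filament protein vimentin, averaged 3645 with vorinostat and 1607 with DMSO at 24 h, but 1342 with vorinostat and 1210 with DMSO at 6 d. DCN averaged 822 with vorinostat and 534 with DMSO at 24 h. At 6 d its means were 2159 with vorinostat and 2225 with DMSO. THY1 went the other way at 24 h, with every vorinostat array below every DMSO array. It averaged 1479 with vorinostat and 1856 with DMSO at 24 h, and 1928 with vorinostat and 1861 with DMSO at 6 d. Of 6 haematopoietic markers CD14 was detected on every array, with means of 191 with vorinostat and 151 with DMSO at 24 h and 178 with vorinostat and 232 with DMSO at 6 d, and PTPRC, the common leukocyte antigen, on none. HBA1, an alpha globin, was detected on all vorinostat arrays of 24 h and on no other array. Of 6 epithelial markers KRT19, a keratin, was detected on every array, with means of 201 with vorinostat and 195 with DMSO at 24 h. At 6 d its means were 153 with vorinostat and 147 with DMSO. EPCAM, an epithelial adhesion protein, was detected on 2 vorinostat and no DMSO arrays of 24 h, and on all DMSO and no vorinostat arrays of 6 d. KRT8 and KRT18 were detected on 1 array at most in any group, and CDH1 and KRT7 on none. The part of these markers in the results was not tested.

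The rule was met in 1 direction only at 24 h. It took 51 of 30113 probes (0.169%), and 0 probes were under 120 on all vorinostat and above 150 on all DMSO arrays of 24 h. With the arrays of 6 d the rule was met by 0 probes, and 12 probes (0.0398%) met it the other way round, under 120 on both vorinostat arrays and above 150 on all 3 DMSO arrays. MMP9 and MGARP were the 2 of the 50 genes among these 12. Thus the genes that were at background with DMSO at 24 h were in part above background with DMSO at 6 d.

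The word silent needs a limit here. Intensities under 120 are close to the array medians of 107 to 112, but 16 of the 50 genes were called detected on 1 or 2 of the DMSO arrays of 24 h, and 34 on none. Detected meant a detection p-value under 0.01 together with an intensity over the centre of the background. With vorinostat all 50 were detected on every array of 24 h. On the edges of the rule, NXPE3 and TTC9B each had a lowest vorinostat value of 150.4, while BLVRB (149.998) and MYOZ3 (149.6) missed it. CCDC126 and COL6A6 had highest DMSO values of 119.8 and 119.6, and TCEAL2 (120.12) and CD24 (120.13) lay just outside. Membership also depended on how the arrays were normalized, since 28 of the 50 genes met the same thresholds after quantile normalization of the non-normalized intensities, which gave 41 genes.

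The median over the 50 genes of the mean normalized intensity was 172 with vorinostat and 109 with DMSO at 24 h, and 115 with vorinostat and 134 with DMSO at 6 d. These are levels on a linear scale from which background was not subtracted, so that ratios of them understate a change. In RNA of whole cultures, fewer cells that express a gene and less RNA per cell cannot be told apart. In the map of all 11 arrays the vorinostat columns of 24 h are bright for every gene, the DMSO columns of 6 d for part of them, and the remaining columns for few.

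**Figure D1:**
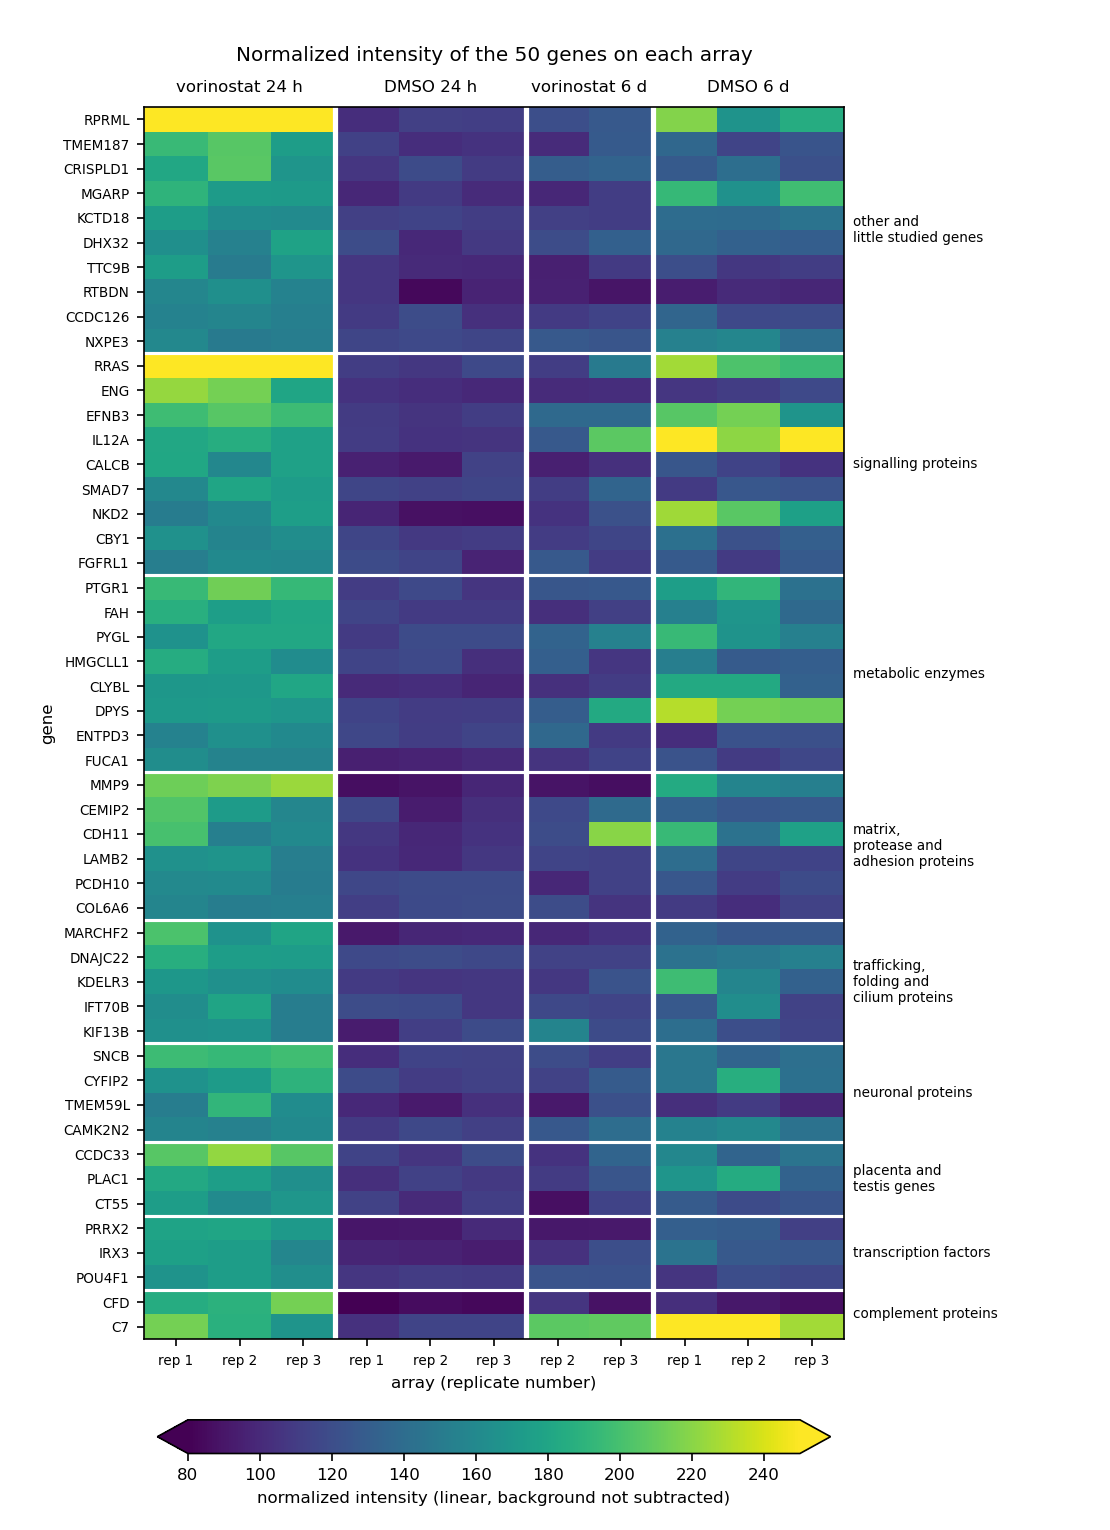
Normalized intensity (colour, linear scale, 80 to 250, background not subtracted) of the 50 genes (rows, grouped by the role of the protein) on the 11 arrays (columns, by group and replicate number). At 24 h every vorinostat value is above 150 and every DMSO value is under 120 by the rule, and at 6 d C7 is above 150 on both vorinostat arrays while 10 genes are above 150 on all 3 DMSO arrays.

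Promoters are shown for genes whose values stand out below, because the 50 genes were selected for moving together at 24 h. The RefSeq table of promoters (GRCh38.p14, 250 bases before and 50 bases after the start of transcription) held 38 of the 50 genes (76%), fewer than the 80% needed, so that a check of base composition or of motifs over the 50 genes is void and none is given. Each promoter was searched on both strands for the GC box GGGCGG, the TATA box TATAAA, the cAMP response element TGACGTCA, the E-box CACGTG, the FOXO motif GTAAACA and the left arm of the RE1 element TTCAGCACC. A GC box is in 58.6% and a TATA box in 9.53% of 15033 promoters of genes on the array. The other shares are 2.66% (cAMP response element), 8.89% (E-box), 2.55% (FOXO) and 0.373% (RE1 arm). Capitals mark matches, read on the strand of the gene, and a match is no evidence of a bound factor. RPRML (chr17:46979204-46979503, minus strand) had the highest of the fold bounds at 24 h, and MGARP (chr4:139280176-139280475, minus strand), NKD2 (chr5:1008552-1008851, plus strand) and CLYBL (chr13:99606440-99606739, plus strand) fell at 6 d and were detected there on every DMSO and no vorinostat array. All 4 hold a GC box, which most genes on the array also do. C7 (chr5:40909247-40909546, plus strand), the gene that was on in both groups of 6 d, holds no GC box and a TATA box on the opposite strand. Its GC content was 44.3%, against 63.7% to 77.0% in the 4 others. Low GC content without a GC box was not particular to C7, since PLAC1, which fell at 6 d, had 42.7% and no GC box. DHX32 (44.3%) and CT55 (37.7%) held no GC box either.
RPRML: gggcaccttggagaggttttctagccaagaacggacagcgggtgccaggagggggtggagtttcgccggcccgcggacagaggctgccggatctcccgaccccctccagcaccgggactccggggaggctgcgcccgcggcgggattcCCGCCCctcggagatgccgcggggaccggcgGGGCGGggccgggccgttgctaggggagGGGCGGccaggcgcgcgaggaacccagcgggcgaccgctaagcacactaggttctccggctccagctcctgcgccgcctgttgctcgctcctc
MGARP: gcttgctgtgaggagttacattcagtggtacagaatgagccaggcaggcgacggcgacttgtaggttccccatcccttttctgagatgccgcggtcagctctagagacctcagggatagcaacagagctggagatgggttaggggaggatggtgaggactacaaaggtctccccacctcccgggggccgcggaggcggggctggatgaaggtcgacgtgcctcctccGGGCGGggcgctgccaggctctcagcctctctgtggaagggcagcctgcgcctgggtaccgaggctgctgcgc
NKD2: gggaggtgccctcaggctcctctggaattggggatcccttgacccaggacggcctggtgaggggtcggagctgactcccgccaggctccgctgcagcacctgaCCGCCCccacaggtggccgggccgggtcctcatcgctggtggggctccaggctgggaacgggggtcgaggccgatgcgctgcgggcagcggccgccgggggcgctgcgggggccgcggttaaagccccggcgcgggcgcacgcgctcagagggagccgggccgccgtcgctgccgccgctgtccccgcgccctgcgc
CLYBL: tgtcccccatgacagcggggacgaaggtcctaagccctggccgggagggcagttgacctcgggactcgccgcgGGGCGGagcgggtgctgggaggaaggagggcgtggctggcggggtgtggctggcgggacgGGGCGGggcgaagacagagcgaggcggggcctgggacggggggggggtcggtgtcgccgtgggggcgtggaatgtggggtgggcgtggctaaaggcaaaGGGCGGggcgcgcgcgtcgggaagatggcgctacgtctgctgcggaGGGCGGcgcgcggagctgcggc
C7: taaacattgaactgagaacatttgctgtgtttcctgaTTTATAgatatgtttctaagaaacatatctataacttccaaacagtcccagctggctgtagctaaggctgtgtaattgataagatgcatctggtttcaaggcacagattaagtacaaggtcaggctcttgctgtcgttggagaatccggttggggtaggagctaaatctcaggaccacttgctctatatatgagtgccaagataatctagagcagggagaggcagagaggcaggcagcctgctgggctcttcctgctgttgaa

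By role, as sorted by hand with the values known, the genes included 9 signalling proteins, 8 metabolic enzymes, 6 matrix, protease and adhesion proteins, 5 trafficking, folding and cilium proteins, 4 neuronal proteins, 3 transcription factors, 3 genes of placenta and testis, 2 complement proteins and 10 other or little studied genes. Sorted by the pattern of the symbol alone, 6% of the 50 genes fell into extracellular matrix and its proteases, against 1.79% of genes silent with DMSO at 24 h and 1.35% of all genes on the array. Transcription factors made up 8%, 6.46% and 6.42%. Of the 50, 0 were noncoding RNA genes, G protein-coupled receptors, ion channels, transporters or histone genes. Noncoding RNA genes made up 8.82% of the genes silent with DMSO at 24 h and 6.94% of all genes. In the same order, G protein-coupled receptors made up 5.35% and 3.497%, and ion channels 2.29% and 1.62%. Transporters made up 2.58% and 2.39%, and histone genes 0.421% and 0.434%. For classes as small as the last ones, a count of 0 among 50 genes says little. Chromosomes 19 and 3 held 6 genes each (12%), against 6.99% and 5.38% of the genes on the array. These shares are descriptions over few genes.

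Under vorinostat at 24 h, 34 genes that no DMSO array detected were at least 2.53-fold to 11.5-fold higher, with a median of at least 3.37-fold. Such a bound sets the mean over the vorinostat arrays, after background correction and quantile normalization, against a floor for each DMSO array, the dimmest detected probe, or the gene itself where it was brighter than that. It takes no account of the spread between arrays. Where the gene was brighter than the floor on every array, it equals the ratio of the mean levels. RPRML (probe ILMN_1676504) encodes a relative of Reprimo, a protein linked to arrest of the cell cycle. Its normalized intensities were 358, 372 and 425 on the vorinostat and 102, 112 and 112 on the DMSO arrays of 24 h, at least 11.5-fold higher. At 6 d they were 121 and 127 with vorinostat and 218, 167 and 186 with DMSO. Both vorinostat arrays of 6 d lay between the values of DMSO at 24 h and those of DMSO at 6 d.

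Among the signalling proteins, RRAS (ILMN_1780825), a small GTPase of the RAS family that acts on integrin adhesion, had intensities of 299.5, 268 and 279.6 with vorinostat and 111, 107 and 118 with DMSO at 24 h. Its values at 6 d were 111 and 149.8 with vorinostat and 226, 203 and 196 with DMSO. The 2 vorinostat arrays of 6 d thus disagreed on whether RRAS was at background. ENG (ILMN_1760778), the endoglin co-receptor of TGF-beta, had 223, 215 and 179.8 with vorinostat and 105, 103 and 99.4 with DMSO at 24 h. At 6 d it was under 120 in both groups, with 101 and 102 under vorinostat and 107, 111 and 118 under DMSO. Of the 4 groups, ENG thus was above 120 with vorinostat at 24 h only.

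EFNB3 (ILMN_1695606) encodes ephrin-B3, a membrane ligand that guides axons. It had 197, 206 and 197 with vorinostat and 109, 106 and 111 with DMSO at 24 h, and 138 and 138 with vorinostat and 206, 214 and 168 with DMSO at 6 d. NKD2 (ILMN_1731206), an inhibitor of Wnt signalling, had 151, 161 and 175 with vorinostat and 97.6, 87.7 and 87.1 with DMSO at 24 h. In contrast, its values at 6 d were 105 and 122 with vorinostat and 226, 207 and 177 with DMSO. All 3 DMSO arrays of 6 d were above all vorinostat arrays of 24 h for NKD2.

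IL12A (ILMN_1671353), a subunit of the cytokines interleukin 12 and interleukin 35, had 182, 186 and 177 with vorinostat and 110.4, 105 and 106 with DMSO at 24 h. At 6 d the vorinostat arrays gave 127 and 207 and the DMSO arrays 291, 221 and 255. Again the vorinostat arrays of 6 d were far apart, with replicate 3 the higher. SMAD7 (ILMN_2203896), the inhibitory SMAD of the TGF-beta pathway, had 159.6, 180.2 and 174 with vorinostat and 116, 113 and 115 with DMSO at 24 h, and 111 and 135 with vorinostat and 109, 126 and 124 with DMSO at 6 d, where the groups overlapped. CALCB (ILMN_2109371), which encodes a calcitonin gene-related peptide, had 182, 159 and 177 with vorinostat and 95.7, 92.4 and 113 with DMSO at 24 h, and 94.6 and 104 with vorinostat and 125, 114 and 105 with DMSO at 6 d. CBY1, a beta-catenin antagonist, and FGFRL1, a decoy receptor of fibroblast growth factors, complete this group, with mean intensities at 24 h of 162 and 157 under vorinostat and 111 and 110.3 under DMSO.

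In the matrix group MMP9 (ILMN_1796316) is a gelatinase that cleaves basement membrane collagen. MMP9 had 213, 217 and 224 with vorinostat and 86.4, 88.9 and 97.99 with DMSO at 24 h, at least 5.41-fold higher. At 6 d it had 89.1 and 86.3 with vorinostat and 184, 157 and 154 with DMSO. Both vorinostat arrays of 6 d were therefore within or just below the range of DMSO-treated cells at 24 h. CDH11 (ILMN_1672611), a cadherin of mesenchymal cells, had 201, 153 and 161 with vorinostat and 108, 98.8 and 105 with DMSO at 24 h, whereas at 6 d it had 119 and 219 with vorinostat and 194, 144 and 177 with DMSO. LAMB2, a laminin chain, COL6A6, a collagen VI chain, PCDH10, a protocadherin, and CEMIP2, a hyaluronan-degrading membrane protein, had means of 154 to 178 with vorinostat and 104 to 118 with DMSO at 24 h. Of these 4, none had a mean above 150 in either group of 6 d.

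Of the 8 metabolic enzymes, DPYS and PYGL were above 150 on all DMSO arrays of 6 d. PTGR1 (ILMN_1704531), a reductase of prostaglandins and reactive aldehydes, had 194, 213 and 194 with vorinostat and 111, 118 and 106 with DMSO at 24 h. Its values at 6 d were 126 and 127 with vorinostat and 175, 192 and 144 with DMSO. FAH (ILMN_1781536), the last enzyme of tyrosine breakdown, had 187, 176 and 180.3 with vorinostat and 115, 109 and 109 with DMSO at 24 h, and 103 and 112 with vorinostat and 154, 169 and 138 with DMSO at 6 d. Both enzymes had every DMSO array of 6 d above every vorinostat array of 6 d. CLYBL (ILMN_1663538), a mitochondrial lyase, had 170.1, 171 and 181 with vorinostat and 100.05, 102 and 97.9 with DMSO at 24 h, and 103 and 110.1 with vorinostat and 183, 184 and 133 with DMSO at 6 d. DPYS (ILMN_1749324), dihydropyrimidinase of pyrimidine breakdown, had 172, 173 and 169.5 with vorinostat and 114, 111 and 111 with DMSO at 24 h, and 130.1 and 183 with vorinostat and 231, 214 and 213 with DMSO at 6 d. On each DMSO array of 6 d, DPYS was above each vorinostat array of 24 h. PYGL, the liver glycogen phosphorylase, averaged 144 with vorinostat and 172 with DMSO at 6 d, and HMGCLL1, a lyase of ketone body formation, 119 with vorinostat and 137 with DMSO.

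Of the trafficking, folding and cilium proteins, KDELR3 (ILMN_1722820), a receptor that returns proteins to the endoplasmic reticulum, had 169.8, 166 and 163 with vorinostat and 109, 106 and 107 with DMSO at 24 h. At 6 d it had 107 and 123.2 with vorinostat and 197, 157 and 133 with DMSO, and its second probe that met the rule averaged 99.5 with vorinostat and 136 with DMSO. Both probes thus were lower with vorinostat than with DMSO at 6 d by mean. MARCHF2 (ILMN_1703142), a ubiquitin ligase of endosomal membranes, had 202, 167 and 179 with vorinostat and 91.4, 98.3 and 99.6 with DMSO at 24 h, and 99.05 and 104.7 with vorinostat and 134, 127 and 127 with DMSO at 6 d. DNAJC22 (ILMN_1749636), a co-chaperone of the J-domain family, had 187, 175 and 174 with vorinostat and 117, 119.5 and 117 with DMSO at 24 h, and 113 and 113 with vorinostat and 144, 148 and 154 with DMSO at 6 d. In both genes the arrays of the groups of 6 d did not overlap.

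The 2 complement genes differed from each other at 6 d. C7 (ILMN_1687848), a component of the membrane attack complex, had 214, 188 and 168 with vorinostat and 104, 115 and 115 with DMSO at 24 h. At 6 d it had 207 and 208 with vorinostat and 372, 253 and 226 with DMSO, so that C7 was above 150 in both groups. CFD (ILMN_1777190), the serine protease that starts the alternative pathway, had 185, 189 and 214 with vorinostat and 80.1, 85.7 and 83.9 with DMSO at 24 h. CFD was near background in both groups of 6 d, with 106 and 88.4 under vorinostat and 103, 91.0 and 87.1 under DMSO.

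Among neuronal genes, SNCB (ILMN_1779343), beta-synuclein, had 197, 194 and 198 with vorinostat and 102, 114 and 114 with DMSO at 24 h, and 119 and 112 with vorinostat and 147, 135 and 142 with DMSO at 6 d. CYFIP2 (ILMN_1677200), a part of the WAVE complex that acts on actin, had 167, 173 and 190.1 with vorinostat and 119, 110.4 and 113 with DMSO at 24 h, and 113 and 129 with vorinostat and 148, 187 and 143 with DMSO at 6 d. Neither gene overlapped between the groups at 6 d. The transcription factors were PRRX2 and IRX3, homeobox genes of limb and body patterning, and POU4F1, a factor of sensory neurons. PRRX2 (ILMN_1790338) had 179, 180.0 and 171 with vorinostat and 90.3, 90.8 and 100.2 with DMSO at 24 h, and 91.1 and 91.7 with vorinostat and 132, 129.8 and 112 with DMSO at 6 d. IRX3 averaged 169.6 with vorinostat and 95.7 with DMSO at 24 h, and 112 with vorinostat and 133 with DMSO at 6 d. POU4F1 averaged 169 with vorinostat and 109 with DMSO at 24 h and was the only gene of the 50 with both vorinostat arrays of 6 d above all DMSO arrays of 6 d, at means of 123.2 with vorinostat and 114 with DMSO. The genes of placenta and testis were CCDC33, PLAC1 and CT55. PLAC1 (ILMN_1754207), a protein of the placenta, had 183, 176 and 164 with vorinostat and 103, 113 and 109 with DMSO at 24 h, and 109 and 125 with vorinostat and 169, 185 and 134 with DMSO at 6 d. CCDC33 (ILMN_1681136), a coiled-coil protein, had 206, 222 and 206 with vorinostat and 114, 106 and 119.6 with DMSO at 24 h, and 105 and 135 with vorinostat and 158, 134 and 146 with DMSO at 6 d.

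Of the remaining genes, MGARP (ILMN_2072101), a mitochondrial protein, had 190.4, 173 and 173 with vorinostat and 98.95, 109 and 101 with DMSO at 24 h. At 6 d MGARP had 98.7 and 111 with vorinostat and 194, 166 and 198 with DMSO, so that its values with DMSO at 6 d overlapped those with vorinostat at 24 h. TMEM187 (ILMN_2198185), a membrane protein, had 195, 206 and 175 with vorinostat and 113, 102 and 105 with DMSO at 24 h, and 101 and 128 with vorinostat and 137, 115 and 124 with DMSO at 6 d. CRISPLD1 (ILMN_2151522), a secreted cysteine-rich protein, averaged 186 with vorinostat and 112 with DMSO at 24 h, and 132 with vorinostat and 130.5 with DMSO at 6 d. The plots of single genes show these patterns side by side.

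**Figure D2:**
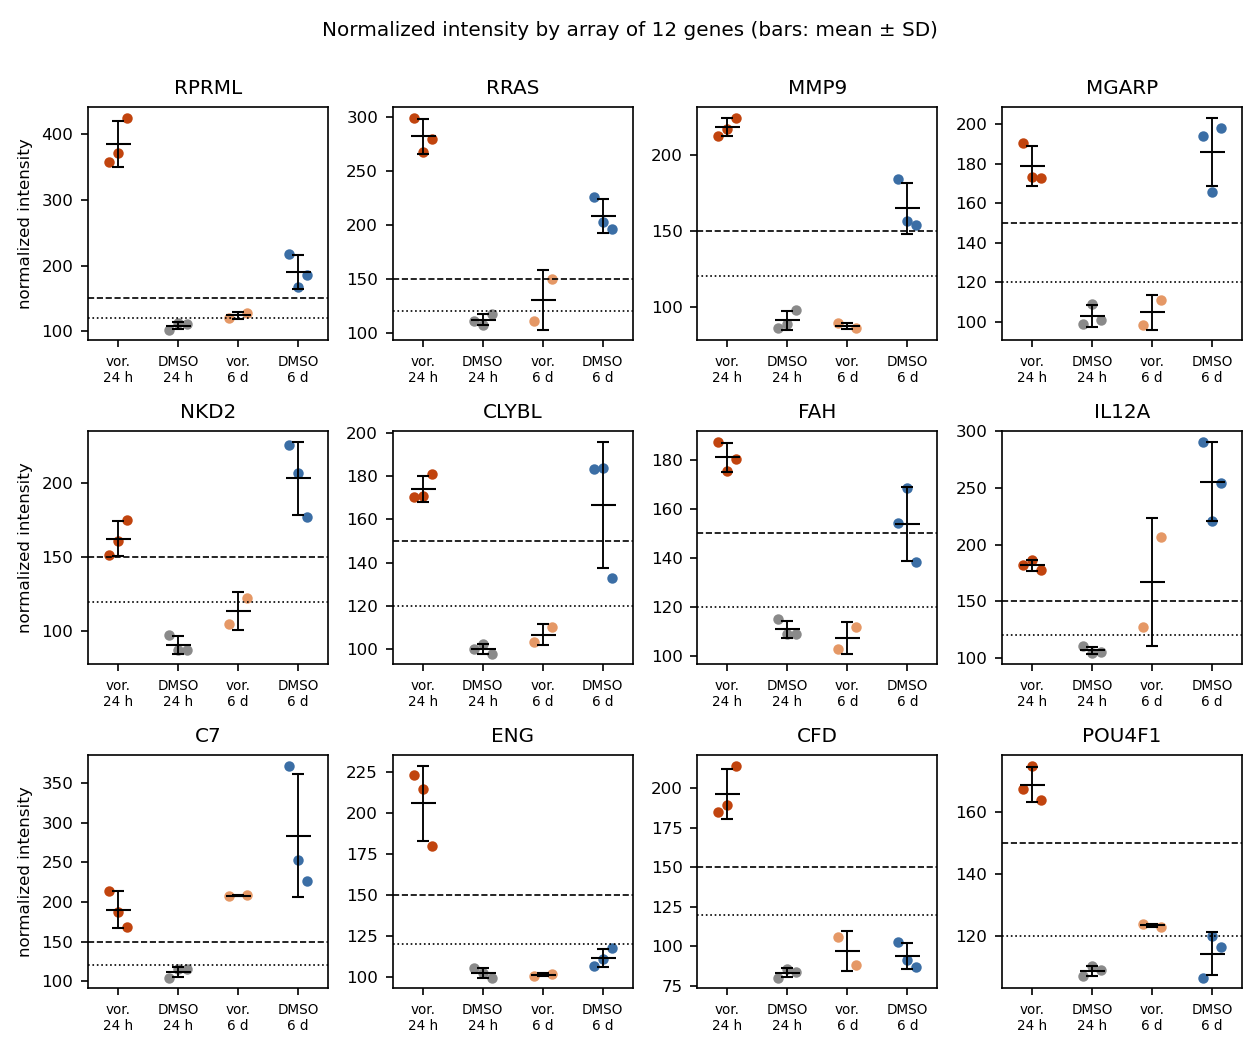
Normalized intensity (vertical axis, linear, own range in each panel) of 12 genes on each array (points) by group, with the mean and SD (bars) and the thresholds of 120 (dotted) and 150 (dashed). RPRML, RRAS, MMP9, MGARP, NKD2, CLYBL, FAH and IL12A are higher with DMSO than with vorinostat at 6 d, C7 is above 150 in both groups of 6 d, and ENG, CFD and POU4F1 are near or below 120 in both.

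At 6 d, most of the 50 genes did not stay on under vorinostat. The arrays of 6 d lay on another chip than those of 24 h, so that time and chip cannot be told apart in these levels. With all arrays of a group above 150 taken as on and all under 120 as silent, 1 gene was on (C7), 27 were between and 22 were silent with vorinostat. With DMSO, 10 genes were on, 34 were between and 6 were silent. Of 13727 other probes silent with DMSO at 24 h, 2 (0.0146%) were on with vorinostat and 14 (0.102%) with DMSO at 6 d, and 90.2% and 90.5% were silent. The 10 genes on with DMSO were C7, IL12A, DPYS, RRAS, NKD2, EFNB3, RPRML, MGARP, PYGL and MMP9. Without vorinostat 6 d replicate 2 the count on with vorinostat was 5, and without DMSO 6 d replicate 3 the count on with DMSO was 17. ENG, CFD, RTBDN, a riboflavin-binding protein of the retina, and COL6A6 were the 4 genes silent in both groups of 6 d.

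**Figure D3:**
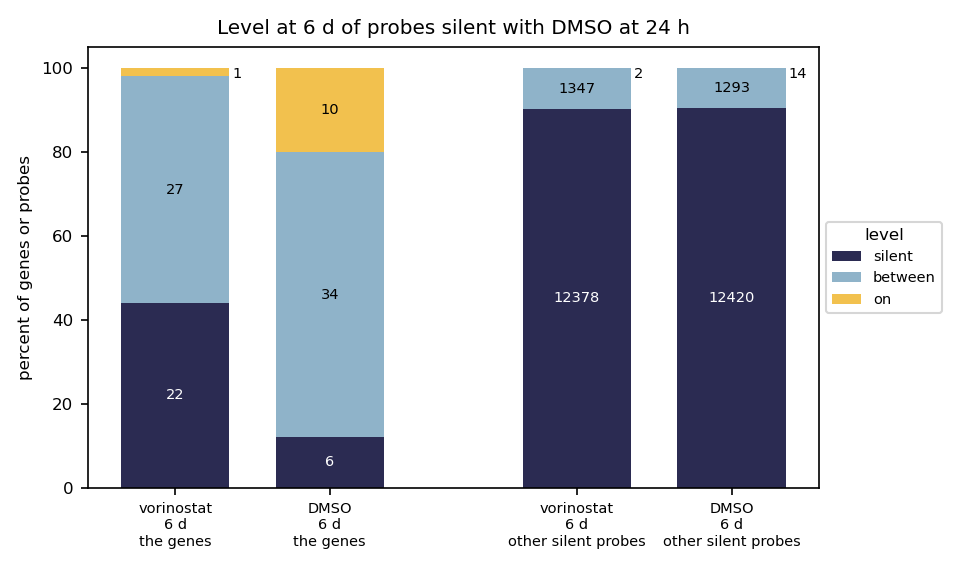
Percent (vertical axis) of the 50 genes and of 13727 other probes silent with DMSO at 24 h that were silent (under 120 on all arrays of the group), on (above 150 on all arrays) or between at 6 d, with numbers of genes or probes on the bars. Of the 50 genes, 22 were silent with vorinostat and 6 with DMSO, and 1 was on with vorinostat and 10 with DMSO.

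Across the arrays, 28 of the 50 genes had every DMSO array of 6 d above every vorinostat array of 6 d, against 20.9% of all 13550 tested probes and 36.2% of the 766 tested probes that were silent with DMSO at 24 h and outside the 50. In the other direction this held for 1 gene, against 16.2% of tested probes.

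The difference between vorinostat and DMSO at 6 d was tested with limma in 1 fit of all 11 arrays, on log2 intensities after background correction (normexp, offset 16) and quantile normalization. The spread was estimated over all groups, so the arrays of 24 h that chose the genes also enter the SE and p-values. The test is thus not fully independent of the choice of genes. 13550 probes were tested, those with 1 gene symbol and at least 1 group in which every array detected them, and the threshold was 0.05 after Benjamini-Hochberg adjustment over all of them. Of the 50 genes, 19 fell with vorinostat and 0 rose, against 5.59% of all tested probes that fell and 3.63% that rose. Among the 766 tested probes silent with DMSO at 24 h and outside the 50, 12.4% fell and 0.783% rose. At an unadjusted p under 0.05, 25 of the genes were lower and 0 higher, against 14% and 10.7% of all tested probes. The difference was negative in 42 of the 50, against 51.9% of all tested probes and 80.7% of the 766. The median log2 difference was -0.61 over the 50 genes and -0.01 over all tested probes. The signs and this median also cover CFD, RTBDN and TMEM59L, which no array of 6 d detected. All 50 were tested because the rule itself requires signal under vorinostat at 24 h, and 37 would also have passed through a group of 6 d. The count of 19 became 8 without the filter on dim probes, 12 with only the arrays of 6 d in the fit and 0 by the analysis of variance of the methods, and the median of -0.61 became -0.22 without background correction.

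**Figure D4:**
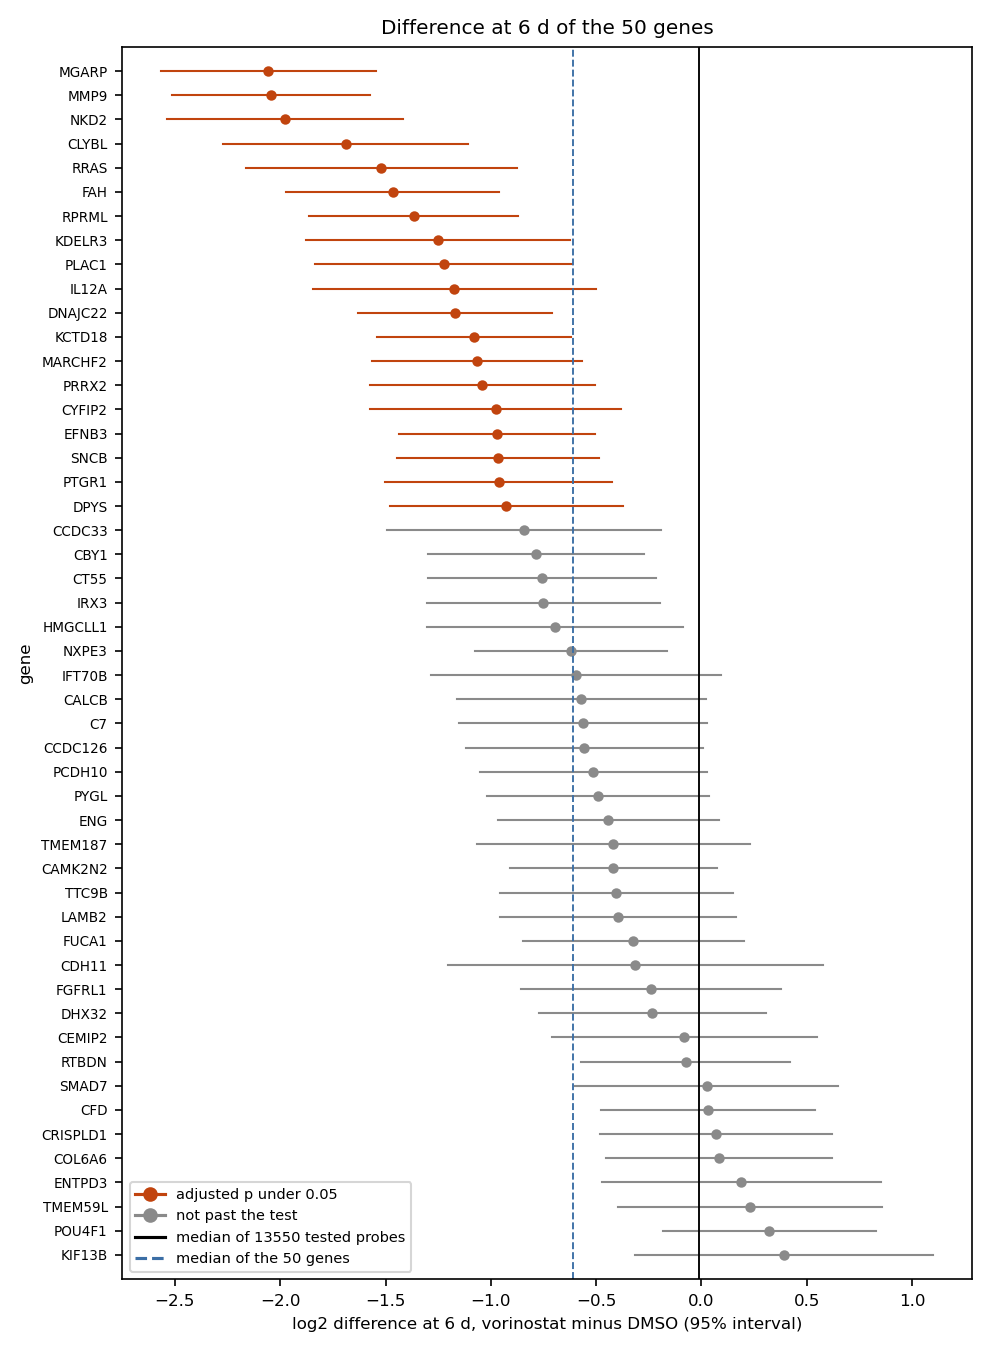
Difference of log2 intensity at 6 d, vorinostat minus DMSO (horizontal axis), with its 95% interval from limma for each of the 50 genes (rows), coloured where the adjusted p was under 0.05, with no settled size where a group did not detect the gene on every array. The 19 coloured genes lie between -2.06 and -0.93, and the dashed line at -0.61 marks the median of the 50 genes beside the solid line at -0.01 for all 13550 tested probes.

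MGARP, MMP9 and NKD2 had the lowest fitted differences, but no vorinostat array of 6 d detected them, so that the size and order of these falls are not settled. MGARP was at a log2 level of 4.43 ± 0.30 under vorinostat (SD, n = 2) and 6.49 ± 0.26 under DMSO (SD, n = 3), a difference of -2.06 (SE 0.24, limma adjusted p = 0.00024). MMP9 was at a log2 level of 4.12 ± 0.01 under vorinostat (SD, n = 2) and 6.16 ± 0.23 under DMSO (SD, n = 3), a difference of -2.04 (SE 0.22, limma adjusted p = 0.00018). NKD2 was at a log2 level of 4.74 ± 0.54 under vorinostat (SD, n = 2) and 6.72 ± 0.28 under DMSO (SD, n = 3), a difference of -1.98 (SE 0.27, limma adjusted p = 0.00042). The bounds for these 3 genes are at least 3.85-fold, 3.30-fold and 3.82-fold lower. CLYBL (-1.69, limma adjusted p = 0.0015) and FAH (-1.47, limma adjusted p = 0.0015) were likewise detected on no vorinostat array of 6 d, at least 3.08-fold and 2.62-fold lower. In all, 9 of the 19 genes were detected on neither vorinostat array of 6 d, 5 on 1 and 5 on both, while all 19 were detected on every DMSO array of 6 d. The 4 others detected on neither were SNCB, MARCHF2, PRRX2 and KCTD18, with bounds of at least 1.68-fold to 2.11-fold lower.

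Further falls past the test were those of RRAS (-1.52 on the log2 scale, SE 0.30, limma adjusted p = 0.0055), RPRML (-1.37, SE 0.23, limma adjusted p = 0.002), KDELR3 (-1.25, SE 0.30, limma adjusted p = 0.014), PLAC1 (-1.22, SE 0.29, limma adjusted p = 0.014) and IL12A (-1.17, SE 0.32, limma adjusted p = 0.029). The other 9 genes past the test were DNAJC22, KCTD18, MARCHF2, PRRX2, CYFIP2, EFNB3, SNCB, PTGR1 and DPYS, with differences of -1.17 to -0.93. The 5 genes detected on 1 vorinostat array of 6 d were RRAS, KDELR3, PLAC1, DNAJC22 and CYFIP2. The size of their falls is not settled either. All 19 had no overlap between the arrays of the groups at 6 d. By role, 4 of 9 signalling proteins, 4 of 8 metabolic enzymes, 3 of 5 trafficking, folding and cilium proteins, 2 of 4 neuronal proteins, 1 of 6 matrix, protease and adhesion proteins, 1 of 3 transcription factors, 1 of 3 placenta and testis genes, 0 of 2 complement proteins and 3 of 10 other genes fell.

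The call depended on single arrays for part of these genes. Without vorinostat 6 d replicate 2, 7 of the 50 genes were lower, and without DMSO 6 d replicate 1, 11 were. RRAS then missed the threshold in the first case (-0.83, limma adjusted p = 0.11), as did IL12A (-0.43, limma adjusted p = 0.44) and DPYS (-0.38, limma adjusted p = 0.45). Where 1 vorinostat array is left, limma assumes that it varies like the other groups. Nothing in the labels or methods says whether the arrays of 6 d came from separate cultures. The p-values therefore measure the spread between arrays within the groups of both times, which may be technical.

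For 31 genes the test was not passed at 6 d, with adjusted p from 0.052 to 0.97. C7 had a difference of -0.56 (95% interval -1.15 to 0.02, limma adjusted p = 0.22) and POU4F1 of 0.32 (95% interval -0.18 to 0.83, limma adjusted p = 0.44). KIF13B, a kinesin motor, had the highest value, 0.39 (95% interval -0.31 to 1.101, limma adjusted p = 0.51), with intensities of 157 and 119 under vorinostat and 141, 121 and 115 under DMSO. These 3 intervals leave room for differences in either direction. ENG was detected on 0 of 2 vorinostat and 1 of 3 DMSO arrays of 6 d. CFD, RTBDN and TMEM59L were detected on none in either group. No difference is therefore given for these genes.

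Other probes of the same genes gave a partly different picture. Of the 50 genes, 19 had 33 further probes, of which 1, the second probe of KDELR3, met the rule and 11 stayed under 120 on all arrays of 24 h. For CBY1 and ENTPD3, however, another probe was above 150 on all DMSO arrays of 24 h, so that these genes were not silent as such. The other probe of CBY1 (ILMN_1730879) averaged 506 with vorinostat and 459.5 with DMSO at 24 h, and that of ENTPD3 (ILMN_2087941), an enzyme that breaks down extracellular nucleotides, 307 with vorinostat and 177 with DMSO. A further probe of SMAD7 (ILMN_2203891) averaged 236 with vorinostat and 171 with DMSO at 24 h, with overlap between the groups, and one of PCDH10 (ILMN_1715458) 165 with vorinostat and 145.3 with DMSO. At 6 d 20 of the further probes were tested, of which 3 fell and 1 rose, against 5.59% and 3.63% of all tested probes. The difference was negative in 12 of the 20, against 51.9% of all tested probes. For genes past the test by their chosen probe, further probes of CLYBL (-0.93), KDELR3 (-1.01), MARCHF2 (-0.54) and SNCB (-1.15 and -0.07) did not pass. The falls were in MGARP (ILMN_3236160, -1.36, and ILMN_1793025, -1.26 on the log2 scale) and PTGR1 (ILMN_2225537, -1.50), and the rise was the further probe of ENTPD3 (0.69, limma adjusted p = 0.02), whose rule-chosen probe had a difference of 0.19 (limma adjusted p = 0.76).

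None of the 50 genes was among 11 genes known to respond to HDAC inhibitors, of which 10 were on the array, nor among GABARAPL1, MAP1LC3A, WIPI1 and BNIP3L, autophagy genes that the study examined. Of the 10, by their brightest probe, only CLU and GSN were under 120 on all DMSO arrays of 24 h, as the rule requires. The lack of overlap with this list was thus largely fixed by the rule. In 4 of the 10 every vorinostat array of 24 h was above every DMSO array of 24 h, CDKN1A, CLU, CRABP2 and SYT11, against 14.5% of all 30113 probes. TUBB3 and HEXIM1 went the other way, with every vorinostat array of 24 h below every DMSO array of 24 h. The share of all probes in that direction was not counted. TUBB3 averaged 2269 with vorinostat and 3126 with DMSO at 24 h. HEXIM1 averaged 102 with vorinostat, where no array detected it, and 114 with DMSO. CLU, which encodes the chaperone clusterin, came close to the rule with 149, 153 and 147 under vorinostat and 104, 113 and 109 under DMSO. At 6 d 8 of the 10 were tested, of which TXNIP (-1.41, limma adjusted p = 0.00032) and CLU (-0.81, limma adjusted p = 0.033) fell and KLF2 (1.30, limma adjusted p = 0.0074) rose.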

How the data were processed

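RNA of SK-N-BE(2)-C cells was hybridized to 11 Illumina HT-12 v4 arrays, grouped by the sample titles. The files deposited by the authors hold non-normalized linear intensities with a detection p-value each, and a value table of intensities that they normalized with BeadStudio. The kind of normalization, and whether background was subtracted before it, is not given in the sources used here; array medians of 107 to 112 in the value table show that it was not. Levels, the choice of genes and the counts of silent and on use that table. The test uses the non-normalized intensities. The tables carry different probe names and were paired by the ranks of a probe on the 11 arrays, where 48104 of 48107 pairs were mutual nearest (7.56% after shuffling), and the others were not used. By the platform annotation 30113 probes had 1 gene, 8 had several and 17986 had none.

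A probe was detected with a detection p-value under 0.01 and an intensity above the median of probes with p above 0.9. Intensities were corrected by normexp (limma 3.58.1, R 4.3.3) with an offset of 16, quantile normalized and taken as log2. The 13550 probes that all arrays of some group detected were fitted by lmFit and eBayes with trend over 4 groups without covariates, and the contrast vorinostat minus DMSO at 6 d was adjusted by Benjamini-Hochberg. The steps were tested on simulated intensities. Tables and figures used Python 3.11.15, pandas 2.3.3 and Matplotlib 3.10.9. Arrays have no read depth, and their number limits the precision. Within groups r across probes was 0.978 to 0.993, so that each array was kept as 1 sample.

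Genes were named by rule: 12 with the highest vorinostat intensity at 24 h, 10 with the largest change past the test at 6 d in each direction, 3 of each symbol class with 3 or more genes, 5 with the highest DMSO intensity at 6 d, the nearest to each threshold, and those that another probe contradicts. The genes and lists were chosen with earlier results of these data known. Others that are named were chosen after their values were seen. Alternatives covered scaling, background, filters, the value table, the replicate block, an analysis of variance as in the methods and each array left out.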

Additional observations from a re-analysis of the deposited data

Results flagged for a closer look

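Of 17986 probes without a gene symbol, which entered no comparison, 5 met the same thresholds at 24 h and 0 met them the other way round. ILMN_1668194 had 251, 259.8 and 273 with vorinostat and 112, 117 and 102 with DMSO at 24 h, and 158 and 147 with vorinostat and 357, 367.7 and 238 with DMSO at 6 d. In 4 of the 5 every DMSO array of 6 d was above every vorinostat array of 6 d.

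In 28 of the 50 genes every vorinostat array was above DMSO at 24 h and below DMSO at 6 d, so that the samples of the 2 times moved in opposite directions. The direction at 24 h was fixed by the choice of the genes, and the difference between the times was not tested. At 6 d alone, every DMSO array was above every vorinostat array in 20.9% of all 13550 tested probes. This share was 36.2% in the 766 tested probes silent with DMSO at 24 h and outside the 50. Opposite differences at the 2 times were not particular to these genes, with a Pearson's r of -0.46 across 13500 tested probes outside them. The log2 differences at 6 d were -2.06 for MGARP, -2.04 for MMP9 and -1.98 for NKD2, none of which was detected on a vorinostat array of 6 d. No group held 4 or more arrays, so that no single array could be checked as an outlier.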

How the results depend on the processing

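The count of 19 genes that fell at 6 d stayed at 18 to 25 under scaling to a common median (25), other background corrections (19), the authors' normalized values (18), a filter on the arrays of 6 d only (19 of 37) and 1 probe per gene (18, with the further probe of ENTPD3 as 1 higher). Without a filter on dim probes it was 8 (262 higher and 392 lower of 30110 probes), with only the arrays of 6 d 12 (153 higher and 439 lower), and by the methods' analysis of variance 0 (0 and 0 over all probes, with 13 genes and 1110 probes lower and 0 and 779 higher at an unadjusted p under 0.05). Leaving out each array of 6 d gave 7 to 20 genes lower and 0 higher, 86 to 698 probes higher and 190 to 945 lower, and a median over the genes of -0.82 to -0.43. Scaling to a common median moved the median of all probes to -0.30, gave 59 probes higher and 1741 lower, against 492 and 757, and a median of -0.80 for the genes. That median was -0.22 without background correction, -0.23 in the authors' values and in the analysis of variance on them, and -0.93 with the filter on the arrays of 6 d.

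The main fit did not pair samples by replicate number. Same-numbered arrays deviated together weakly, with r of 0.094, 0.19 and 0.24 at 24 h and 0.094 and 0.0997 at 6 d. These values do not settle whether samples were paired. For 24 h the methods describe independent replicate experiments, each with vorinostat and solvent. With the replicate number as a block 19 genes fell and the median was -0.59, with 560 probes higher and 829 lower. All 19 genes kept a negative sign under all alternatives, 7 of them lost the call under the analysis of variance alone, and 8 other genes passed the test under at least 1 alternative.

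The rule gave 110 genes on non-normalized intensities scaled to a common median, 4 with 200 as the upper and 16 with 110 as the lower threshold, 662 by detection alone and 57 to 74 without each array of 24 h. The count on with vorinostat at 6 d was 2 or 5 without 1 array. The count on with DMSO, chosen after seeing the data, was 3 at a threshold of 200 and 10 to 17 without 1 array. The 28 genes without overlap became 29 to 38 with 1 array less.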
